A study of Mus musculus with 4 samples.

Results

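SOX3 binding was examined around 10 genes that control neural crest formation and epithelial to mesenchymal transition (EMT). They are 10 of the 22367 protein-coding genes of the nuclear chromosomes in the GENCODE vM1 annotation of the mouse genome (mm9), and were given by name. Zeb1, Zeb2, Snai1 and Snai2 are the Zeb and Snail factors. Foxd3, Tfap2a, Tfap2b, Tfap2c and Twist1 are taken here as the neural crest specifiers, and Ednrb is a receptor. The annotation lists the 3 Tfap2 genes under their older names, Tcfap2a, Tcfap2b and Tcfap2c. For each gene the window was the gene body plus 100 kb to each side, and every peak that overlapped it was kept. The peaks came from SOX3 ChIP-Seq of neural progenitor (NP) cells, in 3 biological replicates without any other genotype or treatment. The NP cells were derived from R1 cells, a single mouse embryonic stem cell line, by 4 days of culture in N2B27 medium, and the antibody was raised against human SOX3. An input sample without SOX3 antibody served the authors as the background for peak calling and was not analysed here. The peak lists hold no expression values, so the identity of the cells could not be checked against marker genes.

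The neural crest forms at the border of the neural plate, leaves the neural tube and gives rise to peripheral neurons and glia, pigment cells and parts of the skull. Specifiers such as FOXD3 and the AP-2 proteins encoded by the Tfap2 genes establish crest identity, and Zeb and Snail factors repress cadherin genes as cells leave the epithelium. ZEB2 has a further role inside the neural plate and the developing brain, where SOXB1 proteins, SOX3 among them, keep cells in the progenitor state. The DNA-binding domain of the SOX family is the HMG box. It prefers short sequences such as AACAAA and AACAAT, and many of their sites lie beside one for a POU protein.

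The 3 lists differed in size, with 18816 peaks in replicate 1, 8096 in replicate 2 and 40543 in replicate 3. The score of a peak is 10 times the negative log10 of its MACS p-value and is 50 at the threshold of 1e-05. Because the read depth behind the lists is unknown, scores were compared by rank or percentile within a list, where 50 is the middle of the list, and a missing peak says only that the threshold was not passed. Replicates 2 and 3 were more alike in their peak boundaries than other pairs, since 34.5% of their overlapping peaks in the whole series began at the same base, against 0.922% for replicates 1 and 2 and 1.63% for replicates 1 and 3. In the 10 windows this applied to 3 of the 5 overlapping pairs of replicates 2 and 3. Whether these replicates shared reads or a processing step was not tested. Counts of genes with shared sites are therefore given also for replicates 1 and 3 alone.

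Across the 10 windows, which cover 2.42 Mb, replicate 1 had 22 peaks, replicate 2 had 6 and replicate 3 had 37. All 10 genes had a peak of replicate 3, which 94.7% of all protein-coding genes also had by the same rule. A peak of replicate 1 was present for 9 of the 10 genes, against 81.7% of all genes, and a peak of replicate 2 for 4 of the 10, against 54.2%. A common site, where peaks of the 3 replicates shared 1 bp or more, was present for 2 genes, Zeb2 with 1 site and Tfap2c with 2, against 42.1% of all genes. Sites shared by replicates 1 and 3, without regard to replicate 2, were present for Zeb2, Tfap2c and Ednrb, or 3 of 10 genes, against 55.0% of all genes. The median number of common sites per window was 0 for the 10 genes and also 0 for all genes. Counted per length, the 10 windows held 1.24 common sites per Mb and the windows of all genes 3.26 per Mb, where windows overlap and a site can count for several genes. With 10 genes and 1 condition, these shares are descriptions without a test.

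**Figure D1:**
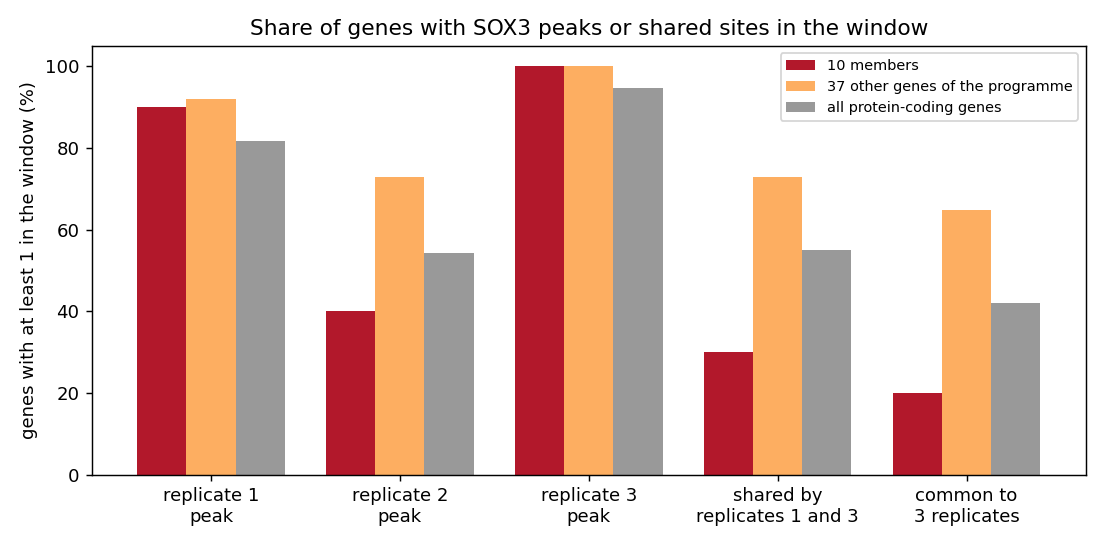
Bars show the percentage of genes with at least 1 SOX3 peak or shared site in the gene body plus 100 kb to each side, for the 10 genes, for 37 other genes of the neural crest and EMT programme and for all protein-coding genes. The 10 genes stand at 20% for common sites of 3 replicates, the 37 other genes at 64.9% and all genes at 42.1%, while for single replicate 3 peaks the bars are at 100%, 100% and 94.7%.

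Overlapping peaks in the 10 windows merged into 51 regions. Peaks of all 3 replicates were present in 3 regions (5.88%) and of 2 replicates in 7 (13.7%), while 41 (80.4%) rested on 1 replicate. In the whole series, the 51271 merged regions divided into 10.5%, 9.72% and 79.8%. Of the 41 regions of 1 replicate, 26 came from replicate 3, 14 from replicate 1 and 1 from replicate 2. The median of the highest percentile reached in a region was 41.6 for regions of 1 replicate, 84.0 for those of 2 and 90.1 for those of 3. A highest value taken over more peaks tends to be larger, and the last class is 3 regions, 2 of them at Tfap2c. These medians therefore do not show whether score and recurrence are related. A region was mostly multi-copy when over 50% of its 50-base sequences occurred in more than 1 place in the genome, which held for 8 of the 51 regions (15.7%) against 28.9% in the series. Of these 8 regions, 7 rested on 1 replicate, and the other was in Zeb1.

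**Figure D2:**
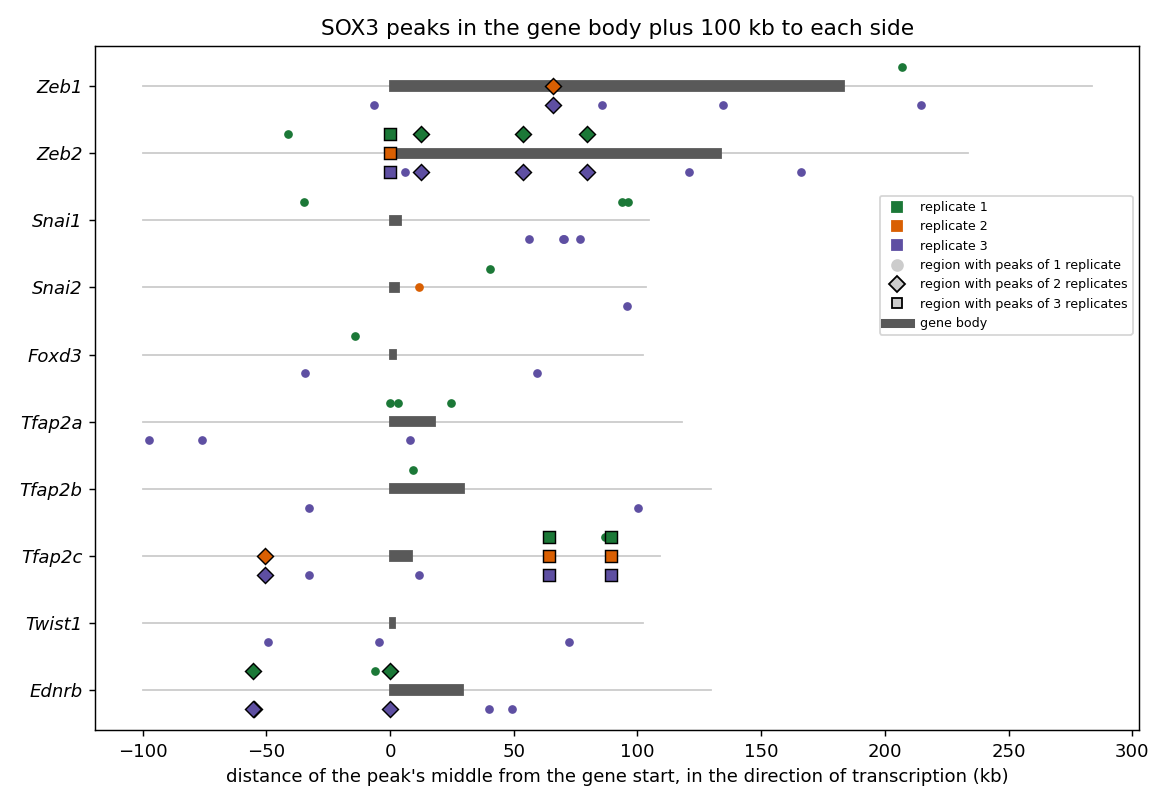
Each marker is a SOX3 peak, placed by the distance of its middle from the gene start in kb along the direction of transcription, with replicates 1, 2 and 3 drawn above, on and below the line of each gene. Squares mark the 3 regions with peaks of all replicates, at the Zeb2 start and downstream of Tfap2c, and diamonds the 7 regions with peaks of 2 replicates, in Zeb1, Zeb2, Tfap2c and Ednrb.

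Zeb2 (ENSMUSG00000026872) encodes a zinc finger homeobox repressor that drives EMT and acts in neural plate and forebrain development. It lies on the minus strand of chromosome 2 from 44839154 to 44972915. With 9 regions in a window of 334 kb, it had the highest count of the 10 genes, and 4 of these regions had peaks of at least 2 replicates. This count is not adjusted for window length, and the Snai1 window of 205 kb held 7 regions. Only 1 of the 10 genes had a common site within 2000 bp of an annotated transcript start of its own, and this was Zeb2, against 4.80% of all genes. The region, from 44972721 to 44972975, spanned the gene start. Its score was 57.7 in replicate 1 (rank 14195, percentile 24.1), 86.25 in replicate 2 (rank 3786, percentile 53.2) and 72.0 in replicate 3 (rank 14938, percentile 63.1). The site was thus in the lower part of the list of replicate 1 and above the middle in the others, where the peaks of replicates 2 and 3 began at the same base. The 60 bp of the region that lie upstream of the annotated start, chr2:44972916-44972975 on the plus strand, are shown because they are the part of this promoter region outside the first exon. Of these, 19 bp belong to the common site itself, from 44972795 to 44972934, and the other 121 bp of that site lie in the exon and are not shown.

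Zeb2 promoter, upstream part: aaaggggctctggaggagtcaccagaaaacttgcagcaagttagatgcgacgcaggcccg

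Exact words were searched on both strands. The words for SOX proteins were AACAAA or AACAAT and, as a variant, GACAAA or GACAAT. The POU octamer was ATGCAAAT or its variant ATGCTAAT. The E-box to which Zeb and Snail proteins bind was searched as CACCTG. None of them was present in the whole region at the Zeb2 start. Other sites lay inside the gene and were shared by replicates 1 and 3. The region from 44960128 to 44960466, 12.6 kb from the gene start with its middle in an annotated exon, scored 73.5 in replicate 1 (percentile 47.1) and 109.6 in replicate 3 (percentile 84.0). The intronic region from 44918915 to 44919250, 53.8 kb from the start, scored 56.4 (percentile 21.2) and 53.7 (percentile 20.4). The intronic region from 44893278 to 44893546, 79.5 kb from the start, scored 52.4 (percentile 7.0) and 55.3 (percentile 27). The first of these was above the middle of the list of replicate 3, and the others were near the threshold in both lists. A peak of replicate 3 alone from 44966678 to 44966950 had its middle 218 bp upstream of a start annotated within the gene, and scored 106 (percentile 83.0). Upstream of the gene, 1 peak was found, in replicate 1, from 45014073 to 45014325 with a score of 98.7 (percentile 62.1), 41.3 kb from the start. Without the requirement of replicate 2, Zeb2 had 4 sites in place of 1. At a p-value limit of 1e-10, or with equal numbers of peaks from each list, it had 0.

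Zeb1, the second Zeb gene and also an EMT repressor (ENSMUSG00000024238, chromosome 18 from 5591858 to 5775465), had 6 regions and no common site. Only the intronic region from 5657704 to 5657865 had peaks of 2 replicates, with a score of 54.2 in replicate 2 (percentile 13.5) and 81.5 in replicate 3 (percentile 71.5). Of its 50-base sequences, 99.1% occurred in more than 1 place in the genome. The peak with the highest percentile, 83.9 with a score of 109, was found in replicate 3 alone, from 5806410 to 5806711, downstream of the gene. No peak lay within 2000 bp of a Zeb1 start, and the closest, from 5585350 to 5585567, lay 6.40 kb upstream and was present in replicate 3 with a score of 75.7 (percentile 66.7).

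Snai1 (ENSMUSG00000042821, chromosome 2 from 167363695 to 167368314) encodes a zinc finger repressor of E-cadherin required for gastrulation. Its window held 7 regions, each with a peak of 1 replicate. The highest percentiles were those of replicate 1 peaks, 68.8 for the peak from 167328702 to 167328990 and 67.2 for the peak from 167459918 to 167460193. The former, with a score of 115, lay 34.8 kb from Snai1 and 100 bp from a start of Rnf114. The other 6 regions had Ube2v1 and not Snai1 as the protein-coding gene with the nearest start, and a pair of them, in Ube2v1 exons, was multi-copy along 100% of the length. Snai2 (ENSMUSG00000022676, chromosome 16 from 14705945 to 14709488), a Snail factor that is also widely used as a marker of the early crest, had 3 regions, each from another replicate. They lay downstream, 11.7 kb from the start in replicate 2 (score 52.6, percentile 8.15), 40.4 kb in replicate 1 (score 50.5, percentile 0.996) and 95.8 kb in replicate 3 (score 63.5, percentile 49.9). Neither Snail gene had a region found in more than 1 replicate, and neither had a peak inside the gene.

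Among the specifiers, Tfap2c stood apart in the number of shared sites. It encodes an AP-2 protein that acts in the neural plate border and, earlier, in trophectoderm and germ cells (ENSMUSG00000028640, chromosome 2 from 172375093 to 172384122, plus strand). Of its 6 regions, 2 had peaks of all replicates, and 16.2% of all genes have 2 or more common sites. The region from 172439193 to 172439613 was intergenic, 64.3 kb downstream of the gene start. Its score was 557 in replicate 1 (rank 565, percentile 97), 273 in replicate 2 (rank 711, percentile 91.2) and 522 in replicate 3 (rank 676, percentile 98.3). In each list these are the highest percentiles among all peaks of the 10 windows. The peaks of replicates 2 and 3 had identical boundaries here, from 172439245 to 172439581. Leaving out replicate 2 or replicate 3 gave 2 shared sites for Tfap2c, while a stricter p-value limit of 1e-10, or equal numbers of peaks from each list, left 1. The second region, from 172464228 to 172464477 and 89.3 kb downstream of the gene start, scored 67.7 in replicate 1 (percentile 41.5), 93.5 in replicate 2 (percentile 57.7) and 149 in replicate 3 (percentile 90.1). For both sites Tfap2c had the nearest protein-coding start. The common sites are shown on the plus strand, with words for SOX and POU proteins and the E-box in capitals, the first as its central 300 bp, chr2:172439263-172439562, and the second in full, chr2:172464262-172464455.

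Tfap2c site 64.3 kb downstream: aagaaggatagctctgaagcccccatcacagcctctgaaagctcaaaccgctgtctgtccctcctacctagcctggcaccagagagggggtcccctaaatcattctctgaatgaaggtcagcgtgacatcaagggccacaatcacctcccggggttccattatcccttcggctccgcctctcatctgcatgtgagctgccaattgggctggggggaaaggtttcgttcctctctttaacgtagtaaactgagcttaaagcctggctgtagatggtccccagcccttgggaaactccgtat
Tfap2c site 89.3 kb downstream: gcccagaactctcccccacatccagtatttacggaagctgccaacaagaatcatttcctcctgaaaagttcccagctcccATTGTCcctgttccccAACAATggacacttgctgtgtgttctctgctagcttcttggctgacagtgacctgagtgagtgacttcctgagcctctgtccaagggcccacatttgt

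The site with the high scores held none of the words, so that it has no capitals. The other held AACAAT at 172464358 to 172464363 and, on the minus strand, GACAAT at 172464342 to 172464347. On the other side of the gene, 50.6 kb upstream, the region from 172324403 to 172324680 had peaks of replicates 2 and 3 with identical boundaries, with a score of 84.9 in replicate 2 (percentile 52.4) and 157 in replicate 3 (percentile 90.8). The nearest protein-coding start to this region was that of 1700029J11Rik and not that of Tfap2c. A peak of replicate 3 alone, 32.9 kb upstream, had a score of 112 (percentile 84.7). All regions of Tfap2c were intergenic, and with a window of 50 kb in place of 100 kb no common site was left.

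Tfap2a (ENSMUSG00000021359, chromosome 13 from 40811044 to 40829192, minus strand), the AP-2 gene needed for crest derivatives of the face, had 6 regions, each with a peak of 1 replicate. The peak with the highest percentile lay at the gene start, from 40829168 to 40829545. It was found in replicate 1 with a score of 162 (rank 3731, percentile 80.2) and was listed in neither of the other replicates. A further replicate 1 peak, from 40826019 to 40826175, had its middle 310 bp upstream of a second annotated start and a score of 53.7 (percentile 13.8). Foxd3 (ENSMUSG00000067261, chromosome 4 from 99322990 to 99325362, plus strand), a forkhead gene of the premigratory crest and of pluripotent cells, had 3 regions of 1 replicate each. Its highest percentile was 78.0, for a replicate 1 peak with a score of 152 from 99308603 to 99308986, 14.2 kb upstream. Both peaks are shown because they are the highest-ranked ones near a specifier that rest on replicate 1 alone, a choice made after their values were seen. For Tfap2a the stretch outside exons of protein-coding genes was trimmed to 300 bp, chr13:40829219-40829518, of which 128 bp lie in an exon of the noncoding gene Gm16989. For Foxd3 the central 300 bp are given, chr4:99308645-99308944, both on the plus strand with the words in capitals.

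Tfap2a upstream of the start: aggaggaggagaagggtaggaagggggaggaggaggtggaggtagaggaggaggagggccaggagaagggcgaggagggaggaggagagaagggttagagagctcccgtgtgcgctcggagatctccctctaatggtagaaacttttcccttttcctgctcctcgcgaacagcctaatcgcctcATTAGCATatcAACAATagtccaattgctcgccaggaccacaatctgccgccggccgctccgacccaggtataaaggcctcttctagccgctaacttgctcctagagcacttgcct
Foxd3 14.2 kb upstream: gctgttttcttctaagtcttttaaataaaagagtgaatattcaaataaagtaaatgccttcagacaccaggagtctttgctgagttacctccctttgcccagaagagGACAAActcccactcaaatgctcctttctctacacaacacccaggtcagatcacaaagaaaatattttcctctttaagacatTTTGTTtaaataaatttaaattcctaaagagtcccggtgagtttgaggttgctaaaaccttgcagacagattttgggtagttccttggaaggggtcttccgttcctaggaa

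At Tfap2a the POU octamer, read as ATTAGCAT on the plus strand at 40829403 to 40829410, was followed by AACAAT at 40829414 to 40829419, and this was the only octamer in the 51 regions. At Foxd3 GACAAA lay at 99308752 to 99308757 and AACAAA at 99308834 to 99308839 on the minus strand. Tfap2b, the AP-2 gene expressed in crest and dorsal neural tube (ENSMUSG00000025927, chromosome 1 from 19198995 to 19228815), had 3 regions of 1 replicate each, and the highest percentile was 45.3, for an intronic replicate 1 peak 9.25 kb from the gene start. Twist1, a bHLH gene of EMT and the cranial crest (ENSMUSG00000035799, chromosome 12 from 34642536 to 34644682), had 3 peaks, all in replicate 3. The closest lay 4.55 kb upstream with a score of 66.6 (percentile 55.3), and the others were at percentiles 18.2 and 2.04. Of the 10 genes, Twist1 was the only one without a peak of replicate 1.

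**Figure D3:**
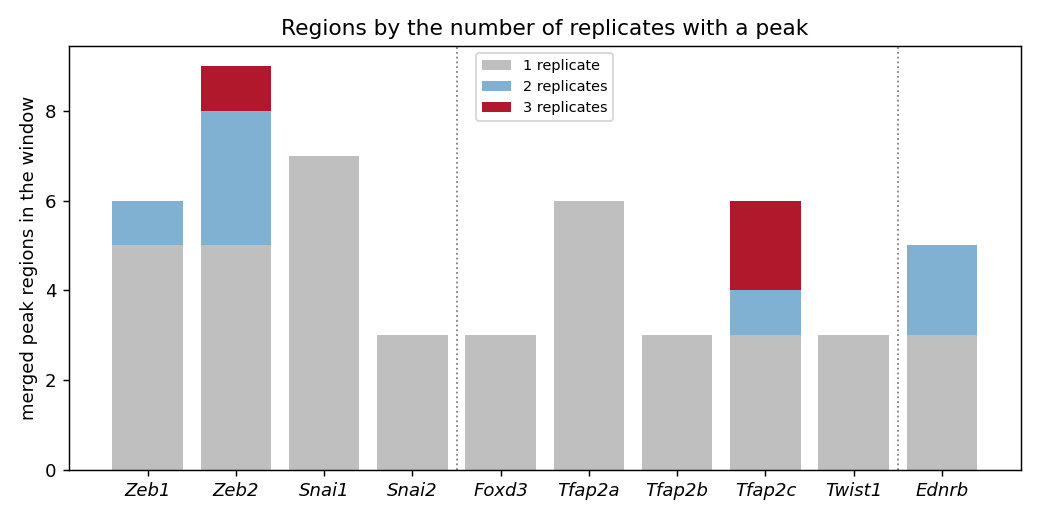
Bars count the merged peak regions in each window, split by the number of replicates with a peak, with dotted lines between Zeb and Snail factors, specifiers and Ednrb. Zeb2 has 9 regions, 1 of them with peaks of 3 replicates, Tfap2c has 6 with 2 such regions, and Snai1, Snai2, Foxd3, Tfap2a, Tfap2b and Twist1 have regions of 1 replicate alone.

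Ednrb (ENSMUSG00000022122, chromosome 14 from 104213842 to 104243390, minus strand) encodes the endothelin receptor that migrating crest cells need to form melanocytes and enteric neurons. It had 5 regions and no peak of replicate 2. The region at its start, from 104243337 to 104243673, scored 139 in replicate 1 (rank 4616, percentile 75.5) and 127 in replicate 3 (rank 5101, percentile 87.4). By this rule, a site of replicates 1 and 3 within 2000 bp of an own start, Ednrb and Zeb2 made 2 of the 10 genes, against 7.79% of all genes. The region 55.2 kb upstream, from 104298352 to 104298796, scored 362 in replicate 1 (rank 1163, percentile 93.8), and held a pair of replicate 3 peaks, of which the higher scored 104 (rank 7106, percentile 82.5). A further region, 6.0 kb upstream from 104249234 to 104249554, was found in replicate 1 with a score of 152 (percentile 78.1). The 3 replicate 1 peaks of Ednrb thus ranked in the upper part of their list, whereas of its 5 replicate 3 peaks 2 did. The other 3 were at percentiles 23.9, in the upstream region, and 41.8 and 48.3, in 2 regions of replicate 3 alone downstream of the gene, 49.1 and 40.1 kb from its start. The replicate 3 peaks at the start, chr14:104243419-104243673, and 55.2 kb upstream, chr14:104298537-104298789, are shown on the plus strand because both sites recurred in 2 replicates, with the words in capitals.

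Ednrb start: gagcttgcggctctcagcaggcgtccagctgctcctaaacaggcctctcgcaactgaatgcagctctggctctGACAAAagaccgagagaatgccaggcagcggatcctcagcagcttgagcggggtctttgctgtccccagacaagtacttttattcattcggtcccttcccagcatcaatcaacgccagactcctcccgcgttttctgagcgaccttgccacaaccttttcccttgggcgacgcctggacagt
Ednrb 55.2 kb upstream: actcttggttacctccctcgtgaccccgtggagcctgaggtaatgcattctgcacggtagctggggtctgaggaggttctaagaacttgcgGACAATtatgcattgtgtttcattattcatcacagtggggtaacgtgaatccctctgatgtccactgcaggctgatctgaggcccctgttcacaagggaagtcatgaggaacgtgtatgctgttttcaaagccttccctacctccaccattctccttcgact

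GACAAA was present at 104243492 to 104243497 in the peak at the start, and GACAAT at 104298628 to 104298633 in the upstream peak. Without the requirement of replicate 2, Ednrb had 3 shared sites in place of 0, 1 at the start and 2 in the upstream region. The paper lists 3 Ednrb sites at the positions of these replicate 3 peaks, and describes keeping only peaks found in every replicate. In the lists used here no replicate 2 peak overlapped the window, and the reason for this difference was not tested.

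**Figure D4:**
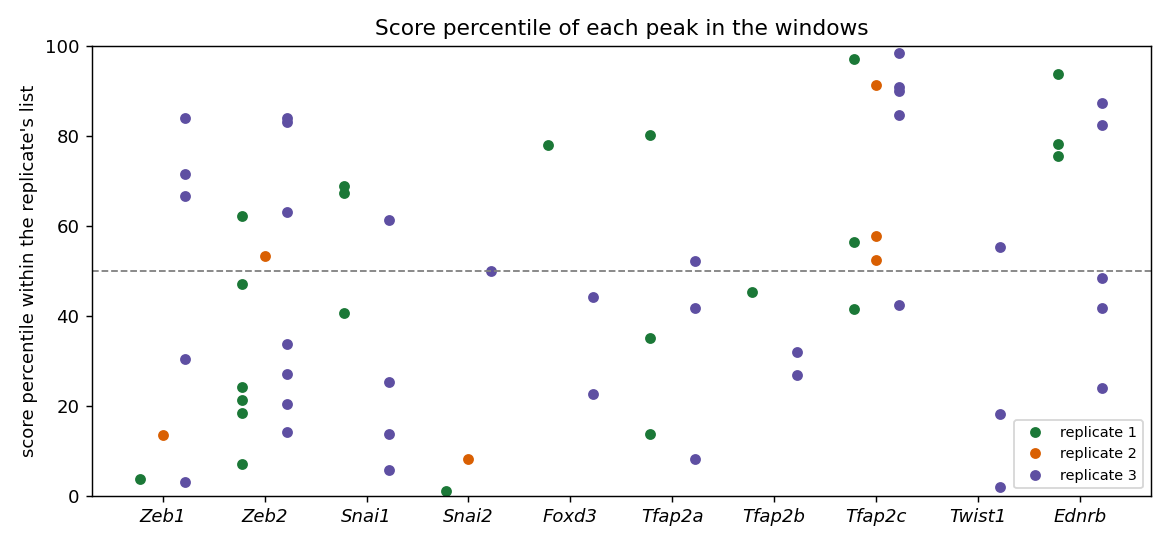
Each point is a peak in a window, with its score percentile within the list of its replicate on the vertical axis and the middle of the list as a dashed line. Peaks at or above the 90th percentile were found for Tfap2c in each replicate and for Ednrb in replicate 1.

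Zeb and Snail factors were then set beside the specifiers. The 4 Zeb and Snail windows cover 1.13 Mb and held 25 regions, of which 1 had peaks of 3 replicates and 4 of 2. The 5 specifier windows cover 1.06 Mb and held 21 regions, of which 2 had peaks of 3 replicates and 1 of 2. In both groups a single gene had common sites, so that the density of 0.888 per Mb rested on Zeb2 and that of 1.88 per Mb on Tfap2c. The Zeb and Snail windows had 9.77, 2.67 and 15.1 peaks per Mb in replicates 1, 2 and 3. The specifier windows had 7.54, 2.83 and 14.1 per Mb, and the windows of all genes 12.04, 4.62 and 20.8 per Mb. The median percentile was 24.1 for the 11 replicate 1 peaks of the Zeb and Snail genes and 50.9 for the 8 of the specifiers, and 33.7 and 42.4 for the 17 and 15 peaks of replicate 3. Without Tfap2c, left out after the values were seen, the specifier medians were 45.3 in replicate 1 and 29.4 in replicate 3, and without Zeb2 those of the other group were 40.7 and 40.2. The order in replicate 3 thus rested on Tfap2c. In replicate 2 the medians were 13.5 for 3 peaks and 57.7 for 3 peaks, the latter all at Tfap2c. No peak of a Zeb or Snail gene reached the 90th percentile in any list. Among the specifiers, 1 peak of replicate 1, 1 of replicate 2 and 3 of replicate 3 did, all of them at Tfap2c. The median distance of a region from the gene start was 70.0 kb for the Zeb and Snail factors and 34.3 kb for the specifiers, where the bodies of Zeb1 and Zeb2 are 184 and 134 kb long and those of the specifiers 2.15 to 29.8 kb. Without replicate 2 the numbers of shared sites were 4 and 2, the reverse order of 1 and 2, since 3 more sites then counted for Zeb2. With 50 kb to each side of the gene the numbers were 1 and 0, also in the reverse order. With 4 and 5 genes, which are not replicates, no test of this difference was made.

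Over the 51 regions, AACAAA or AACAAT was present in 18 regions (35.3%) and in 36.6% of all merged regions of the series. GACAAA or GACAAT was present in 11 regions (21.6%) against 24.3%, and either kind of SOX word in 24 (47.1%) against 49.2%. The octamer was found in 1 region (1.96%) against 4.10%, and CACCTG in 9 (17.6%) against 16.6%. CACCTG was present in 6 of the 25 regions in Zeb and Snail windows and in 3 of the 21 in specifier windows. Of the 6, 3 were Snai1-window regions with a nearer start of Rnf114 or Ube2v1. Among the specifier regions with CACCTG, that in the Tfap2a window had a nearer start of Gcnt2, and that in the Twist1 window was mostly multi-copy. In regions of 2 or 3 replicates, a SOX word was present in 6 of 10 against 69.3% of such regions in the series. The regions differ in width, which was not adjusted for.

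For context, 37 other genes of the crest and EMT programme were counted by the same rule, a list that was drawn up with earlier results of these data known. They held 44 common sites, or 4.25 per Mb against 3.26 per Mb for all genes. At least 1 was present for 24 of them (64.9%), against 42.1% of all genes, and the median was 1 against 0. For sites of replicates 1 and 3 the number was 27 (73.0%), against 55.0% of all genes. The highest number, 4, was found for Pax3 and Gbx2, homeobox genes of the neural plate border, for Sox5 and for Fn1, the gene for fibronectin. These counts are not per length, and the body of Sox5, from 143776945 to 144730497 on chromosome 6, is far longer than those of Pax3, Gbx2 and Fn1. Pax3, with 6, 5 and 14 peaks in replicates 1, 2 and 3, and Gbx2, with 14, 6 and 12, had more replicate 2 peaks than any of the 10 genes described above. Among relatives of these genes, Snai3, Twist2 and the endothelin gene Edn3 had 1 common site each. The endothelin gene Edn1, the receptor gene Ednra, Tfap2d and Tfap2e had 0. The remaining genes of the list with 0 were Sox10, Msx2, Mitf, Ret, Erbb3, Cdh1, Vim, Ece1 and Hand2. Within 2000 bp of an own start, 5 of the 37 genes had a common site, namely Zic1, Gbx2, Cdh2, Fn1 and Itgb1, which is 13.5% against 4.80% of all genes. For sites of replicates 1 and 3 this number was 8 (21.6%), against 7.79% of all genes.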

How the data were processed

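SOX3 ChIP-Seq peak lists of 3 biological replicates of NP cells were analysed, with 18816, 8096 and 40543 peaks. According to the labels and methods, the authors aligned 50 bp reads to mm9 with Bowtie (1.0.0 in the submitters' processing notes) and called peaks in each replicate with MACS (bandwidth 300, model fold 10 to 30, input as control, p-value threshold 1e-05; its version is not given in the sources used here). The deposited score is a transformed MACS p-value, 10 times its negative log10, and is not normalized between replicates. The depth is unknown, since the lists give no read counts.

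Genes and transcript starts came from GENCODE vM1 on NCBIM37, the same assembly as mm9; all peaks ended within their chromosomes. The 3 Tfap2 members, and Tfap2d and Tfap2e of the other genes, were matched through synonyms in a RefSeq table (GRCm38.p6), of which no coordinate was used. A region is the union of overlapping peaks, and a common site 1 bp or more that peaks of the 3 replicates share. Percentiles count tied scores at the middle of the tie. Distances run from the middle of a region to the gene start, and a promoter is within 2000 bp of a transcript start. Exons, introns and intergenic positions refer to protein-coding genes. Copies of 50-base sequences were counted in the reference on both strands. Every member is named. Sequences were to be shown for the highest common site of each member, and the others were chosen after their values were seen. The members and lists were chosen with earlier results of these data known. No test was made, because there is 1 condition and genes are not replicates.

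The alternatives were a stricter p-value limit of 1e-10, the 8096 best peaks of each list (equal numbers), a reciprocal overlap of 50%, middles within 300 bp, each replicate left out, and windows of 50 and 200 kb, with multi-copy regions left out as an addition made after seeing the data. The procedure was tested on simulated data. Python 3.11.15 was used with numpy 2.4.6, numba 0.67.0 and matplotlib 3.10.9.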

Additional observations from a re-analysis of the deposited data

How the results depend on the processing

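The 10 windows held 3 common sites, 1 near Zeb and Snail factors and 2 near specifiers, over 2 genes. At a stricter p-value limit of 1e-10, these numbers were 1, 0 and 1, over 1 gene, and 5261 of all protein-coding genes had a common site (23.5%) in place of 9417. With equal numbers of peaks they were also 1, 0 and 1, over 1 gene. The site that was left in both cases was near Tfap2c. With 50 kb to each side the numbers were 1 in all, 1 near Zeb2 and 0 near specifiers, over 1 gene, and with 200 kb they were 5 in all and 4 near specifiers, Tfap2c with 3 and Tfap2a with 1. Leaving out 1 replicate gave 3 to 9 common sites in all, 1 to 4 near Zeb and Snail factors and 2 to 3 near specifiers. The highest numbers came without replicate 2, which added 3 sites to Zeb2 and 3 to Ednrb, and for the specifiers without replicate 1, which also gave Zeb1 1 site that is mostly multi-copy. A reciprocal overlap of 50%, middles within 300 bp and, added after seeing the data, leaving out mostly multi-copy regions changed no count of the members. The number of genes with a common site lay between 28.7% and 60.5% of all genes across the remaining alternatives, and in each the share of the 10 genes was lower. No paired analysis was possible because there is 1 group of replicates. The lists give no depth, so a peak that 1 replicate lacks was not detectable at the threshold and is not shown to be absent.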
